A study of Mus musculus with 35 samples.

Results

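The enzymes and helper proteins that modify, trim and crosslink collagen were followed through 4 weeks of radiation dermatitis in mouse skin. They comprised 10 genes, found by symbol among the 36106 genes of the count table: the prolyl 4-hydroxylase subunits P4ha1 and P4ha3, the lysyl hydroxylases Plod1 and Plod2, the collagen chaperone gene Serpinh1, the procollagen C-proteinase gene Bmp1, and the lysyl oxidases Lox, Loxl1, Loxl2 and Loxl3. All 10 were found, and all 10 passed the filter on low counts in every comparison. Bulk RNA sequencing covered 35 skin samples of 19 female mice of the inbred strain C57BL/6J, which were 10 weeks old at the start. Radiated skin (n = 16) had received 25 Gy on the left flank, delivered at 3.6 Gy per minute over 420 seconds, and was shaved with an electric razor afterwards. Control skin (n = 16) was taken to come from the radiated mice, 1 mouse for each week and number, as the count of mice implies but the labels do not state, and its place on the body is not given in the sources used here. Both were sampled at weeks 1, 2, 3 and 4, with 4 samples of each kind per week and different mice each week. Sham skin (n = 3) came from mice without radiation. The labels give no week for it, so comparisons with sham skin are not matched for week. Whether control and sham skin was shaved is not given in the sources used here.

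Collagen chains are modified inside the endoplasmic reticulum before they leave the cell. Prolyl 4-hydroxylases make the hydroxyproline that holds the triple helix together at body temperature, lysyl hydroxylases make the hydroxylysine used for sugar attachment and for the more stable crosslinks, and the chaperone HSP47, the product of Serpinh1, binds the folded helix. Outside the cell, Bmp1 removes the C-terminal propeptide so that fibrils can form, and lysyl oxidases turn lysine side chains into aldehydes that join neighbouring collagen and elastin molecules. In skin these proteins come mostly from dermal fibroblasts, and they are best known there for their part in scar formation and tensile strength.

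Library totals ran from 17362853 to 28487885 counts, and levels are given as CPM, counts per 1e6 counts of a scaled library. Because genes differ in length, levels are compared between samples and not between genes. As a check of the tissue, the 6 keratinocyte markers summed to between 7229 and 31520 CPM and the 9 fibroblast markers to between 502 and 2903 CPM, so both were present in every sample. The 10 growing hair follicle markers, in contrast, ran from 12.3 to 33890 CPM between samples, also within groups. In bulk skin, a change in the number of cells that express a gene and a change in its RNA per cell cannot be told apart.

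For 2 genes the promoter sequence is shown, because these gave the smallest and the largest rise of the 10 in radiated skin of week 4 and both encode the catalytic subunit of the same kind of enzyme. RefSeq's promoter table for GRCm38.p6 held 4 of the 10 genes, namely P4ha1, P4ha3, Plod1 and Serpinh1. Each sequence is the 250 bases before the gene's start, on the plus strand, 5′ to 3′, and capitals mark GGGCGG (the GC box) and ACGTG or GCGTG (cores of the hypoxia response element) on either strand.
P4ha1, chr10:59323046-59323295: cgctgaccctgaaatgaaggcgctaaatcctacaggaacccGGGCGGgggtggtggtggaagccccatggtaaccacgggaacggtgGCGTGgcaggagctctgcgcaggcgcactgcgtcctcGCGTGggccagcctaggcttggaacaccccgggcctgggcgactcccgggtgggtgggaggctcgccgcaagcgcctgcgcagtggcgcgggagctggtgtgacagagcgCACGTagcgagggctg
P4ha3, chr7:100285270-100285519: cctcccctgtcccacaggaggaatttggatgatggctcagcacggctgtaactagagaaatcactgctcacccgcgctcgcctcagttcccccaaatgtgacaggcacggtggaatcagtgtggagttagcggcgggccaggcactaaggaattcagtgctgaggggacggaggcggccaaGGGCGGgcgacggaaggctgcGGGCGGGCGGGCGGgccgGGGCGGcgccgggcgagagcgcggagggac

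Both windows were rich in G and C, at 69.6% for P4ha1 and 67.2% for P4ha3, against a median of 52.4% over 32851 promoters. P4ha1 held 1 GC box, 1 match to ACGTG and 2 matches to GCGTG. P4ha3 held 5 GC boxes, some of which overlap, and neither hypoxia core. The GC box was present in 4 of the 4 windows searched and in 32.7% of all promoters. The core ACGTG was present in 2 of 4, P4ha1 and Serpinh1, and in 16.6% of all promoters, and GCGTG in 2 of 4, P4ha1 and Plod1, and in 28.2% of all. A match gives the letters in the window only.

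In the GENCODE M21 annotation of GRCm38, P4ha1 spans chromosome 10:59323296-59373304 and P4ha3 7:100285520-100319699, on the same chromosome as Serpinh1, at 7:99345376-99353239. Loxl1, at 9:58287738-58313186, and Plod2, at 9:92542223-92608428, share chromosome 9. Loxl2, at 14:69609068-69695834, and Bmp1, at 14:70474558-70520234, share chromosome 14. Plod1 lies at 4:147909753-147936767, Loxl3 at 6:83034173-83052562 and Lox on chromosome 18. The deposited values are per gene, so none belongs to a single exon.

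Each week's radiated samples were set against that week's control samples to follow these genes as the dermatitis developed. By week 4 all 10 genes were higher in radiated skin, by 1.61-fold to 9.75-fold, and every radiated sample of that week lay above every control sample in all 10, a separation seen in 22.9% of all genes. In weeks 1 and 2 no gene passed the test, beside 0% and 0.00577% of all genes, although the median log2 fold change of the 10 in week 2 was 0.51 against 0.00 over all genes. In week 3, 5 of 10 passed, all higher, beside 13.6% of all genes that were higher and 27.2% that differed either way. With each mouse taken as a block, 2 of 10 were called in week 2 and 2 in week 3, beside 3.7% of all genes that differed and 10% that were higher. In week 4 the lysyl oxidases, P4ha3, Plod2 and Bmp1 had the largest log2 fold changes of the 10, and P4ha1 the smallest.

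**Figure D1:**
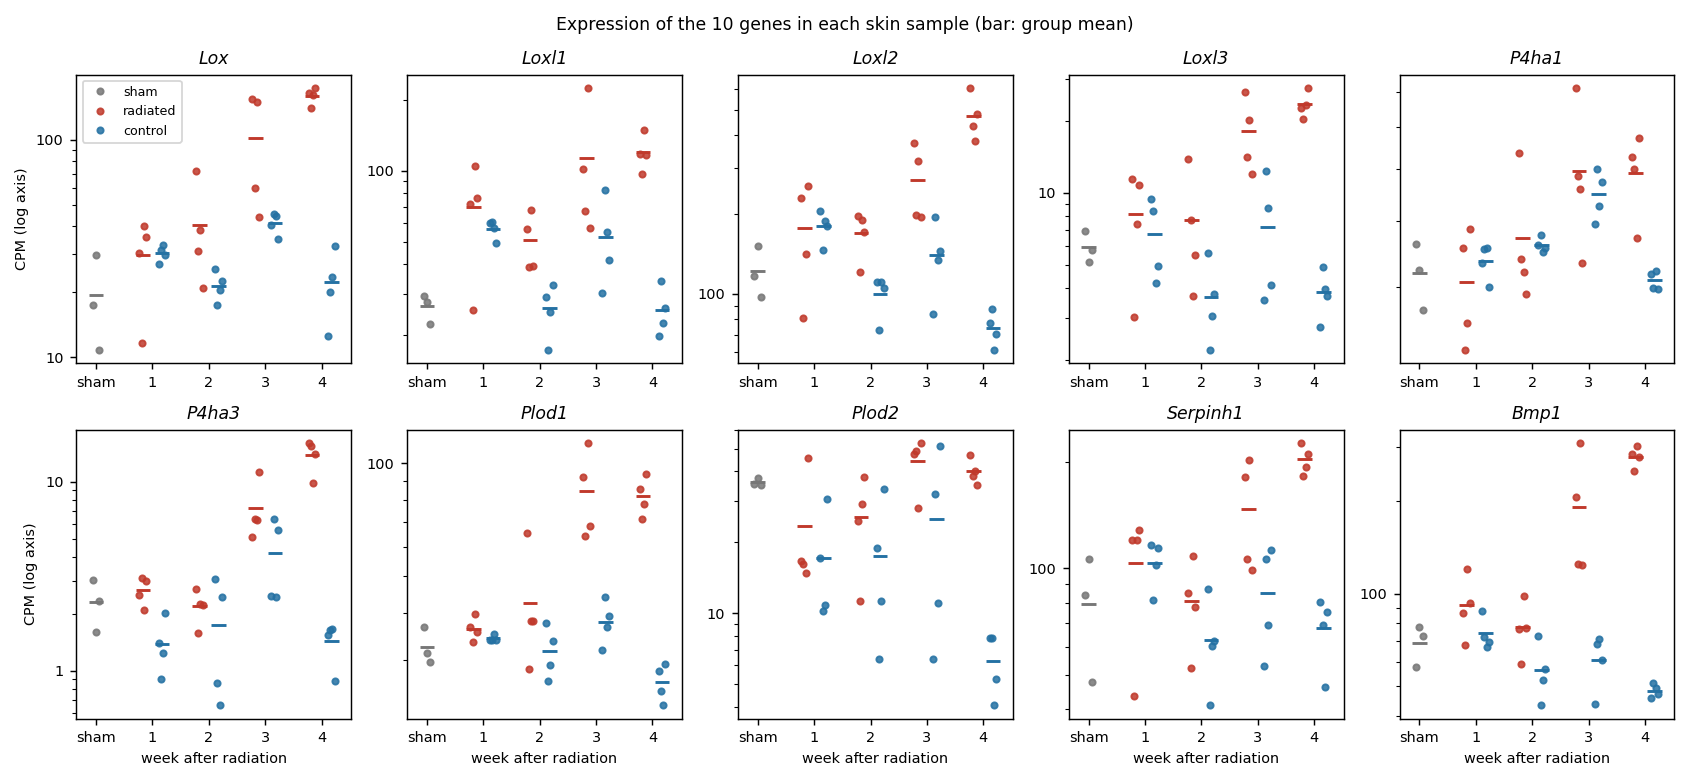
CPM of the 10 genes in each of the 35 samples, on a log axis, by week after radiation, with sham skin at the left and a bar at each group mean. In week 4 the 4 radiated samples sit above the 4 control samples for all 10 genes, while for Plod2 they sit at the height of sham skin.

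In week 1, 0 of 10 genes passed edgeR's quasi-likelihood test at an adjusted p under 0.05, as did 0% of the 17578 genes tested. A DESeq2 Wald test also called 0 of the 10, beside 423 of all genes, and 1 of 10 had an unadjusted p under 0.05, beside 14.1% of all genes. That gene was P4ha3, whose level was 2.52, 3.08, 2.09 and 2.97 CPM in radiated skin and 1.40, 0.903, 1.24 and 2.02 CPM in control skin. The groups did not overlap, as for 3.49% of all genes, and the log2 fold change was 0.94 ± 0.33 (SE) with an edgeR adjusted p of 0.269. Radiated replicate 2 was the lowest of its group in 8 of the 10 genes.

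In week 2, again 0 of 10 genes passed the edgeR test, beside 0.00577% of all genes, while 5 of 10 had an unadjusted p under 0.05, beside 13.8% of all genes. Loxl1, which crosslinks elastic fibres as well as collagen, was at 56.8, 38.8, 68.0 and 39.2 CPM in radiated skin and at 29.0, 17.3, 25.0 and 32.6 CPM in control skin. Loxl2, which acts on fibrillar and basement membrane collagen, was at 197, 121, 190.4 and 172 CPM against 111, 72.9, 111 and 106 CPM. For both genes every radiated sample lay above every control sample, which held for 3.97% of all genes. With the mouse as a block, both passed the edgeR test, Loxl1 with a log2 fold change of 0.96 and an adjusted p of 0.0454 and Loxl2 with 0.76 and 0.0133, against 3.7% of all genes. DESeq2 called 2 of 10, and 734 of all genes. In the blocked fit, leukocyte and macrophage markers were higher for 7 of 8 and skeletal muscle markers lower for 6 of 8, and fibroblast markers were higher for 2 of 9. Fibroblast markers summed to between 1298 and 1719 CPM in radiated skin and between 761 and 1038 CPM in control skin, with no overlap. Without the block 0 of 9 passed the edgeR test and 8 of 9 had an unadjusted p under 0.05, with a median log2 fold change of 0.82. The part of these cell types in the differences of the 10 genes was not tested.

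In week 3, 5 of 10 genes were higher in radiated skin in the fit without the block, against 13.6% of all genes that were higher and 27.2% that differed either way. The 5 were Lox, Loxl2, Loxl3, Plod1 and Bmp1. Plod1, which hydroxylates lysines in the helical part of collagen, was at 92.1, 64.0, 114 and 68.1 CPM in radiated skin and at 31.8, 44.1, 36.6 and 39.1 CPM in control skin. All 4 radiated samples were above all 4 controls, and the log2 fold change was 1.18 ± 0.21 (SE; edgeR adjusted p = 0.00407). Bmp1 was at 207, 125, 309.6 and 124 CPM against 43.6, 68.4, 71.2 and 60.8 CPM. These groups did not overlap either, and the log2 fold change was 1.68 ± 0.31 (adjusted p = 0.00515). Complete separation upwards was seen in these 2 genes of the 10 and in 14.4% of all genes.

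In the other called genes of week 3 the groups overlapped, although the radiated sample was higher in all 4 same-numbered pairs. Lox, the founding lysyl oxidase, reached 154 and 149 CPM in radiated replicates 1 and 3 but 59.9 and 44.1 CPM in replicates 2 and 4, beside 35.1 to 45.9 CPM in control skin. Its log2 fold change was 1.32 ± 0.38 (edgeR adjusted p = 0.0303). Loxl3, another lysyl oxidase, was at 26.5, 14.1, 20.1 and 11.9 CPM against 3.56, 12.4, 8.65 and 4.11 CPM, and Loxl2 at 372, 198, 318 and 195 CPM against 83.8, 196, 135 and 146 CPM. Their log2 fold changes were 1.36 ± 0.43 (adjusted p = 0.0406) and 0.98 ± 0.30 (adjusted p = 0.0359). With the mouse as a block, 2 of 10 genes were called, Plod1 with a log2 fold change of 1.15 (adjusted p = 0.0183) and Bmp1 with 1.59 (adjusted p = 0.0132), against 10% of all genes that were higher. The blocked log2 fold changes of Lox, Loxl2 and Loxl3 were 1.12, 0.98 and 1.46, with adjusted p of 0.0526, 0.0956 and 0.0546.

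The 5 genes that did not pass in week 3 had log2 fold changes from 0.18 ± 0.22 for P4ha1 to 1.14 ± 0.46 for Loxl1. Plod2 spread widely in control skin of that week, at 6.39, 32.2, 11.1 and 51.3 CPM, beside 47.2, 48.8, 27.9 and 52.9 CPM in radiated skin. Its log2 fold change was 0.84 ± 0.55 (edgeR adjusted p = 0.288). Across the 10 genes the median coefficient of variation among radiated samples was 35.8% in week 3 and 12.7% in week 4. In week 3, radiated replicates 1 and 3 each held the highest value of 4 genes, and replicate 4 held the lowest of 7. Replicates 1 and 3 also had the highest sums of leukocyte markers (1481 and 1693 CPM) and fibroblast markers (1835 and 2295 CPM), and replicate 4 the lowest of both (634 and 994 CPM) with 30810 CPM of keratinocyte markers, against 7229 CPM in replicate 1. The part of these cell types in the spread was not tested. Control replicate 1 was the lowest of its group in 8 genes. Without radiated replicate 1 or 3, or without control replicate 1, 3 or 4, 2 of 10 genes were called, and 4 without radiated or control replicate 2. Without radiated replicate 4, 7 were called, among them Loxl1 (adjusted p = 0.0479) and Serpinh1 (adjusted p = 0.0441).

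By week 4 the picture was uniform, with 10 of 10 genes higher in radiated skin at an edgeR adjusted p under 0.05. Over all 17850 genes, 24.2% were higher and 48.4% differed either way. As the groups lay fully apart in all 10 genes, the radiated sample was by necessity higher in 40 of 40 same-numbered comparisons of a gene. In weeks 1, 2 and 3 it was higher in 28, 33 and 34 of 40. The 10 genes of a week share the same mice, and the share of such pairs over all genes was not computed. The median log2 fold change of the 10 genes was 2.57, beside 0.02 over all genes.

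Among the prolyl 4-hydroxylases, P4ha3 stood at 16.1, 15.4, 9.81 and 14.1 CPM in radiated skin and at 1.54, 1.64, 1.67 and 0.884 CPM in control skin of week 4. Its log2 fold change of 3.29 ± 0.24 (SE; edgeR adjusted p = 7.17e-06) was the highest of the 10 genes. P4ha1, the widely expressed catalytic subunit whose promoter holds the hypoxia cores shown above, was at 52.7, 50.01, 37.0 and 57.3 CPM against 31.7, 29.9, 32.2 and 29.7 CPM. The groups did not overlap, and the log2 fold change was 0.68 ± 0.13 (adjusted p = 0.00184). The lower values in radiated skin came from the same replicate, number 3, for both genes.

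Both lysyl hydroxylases were higher in radiated than in control skin of that week. Plod1 was at 85.3, 71.04, 78.1 and 93.9 CPM in radiated skin and at 28.1, 24.7, 22.6 and 29.2 CPM in control skin, a log2 fold change of 1.66 ± 0.12 (edgeR adjusted p = 6.91e-06). Plod2, which hydroxylates lysines in the telopeptides and so sets the kind of crosslink, was at 47.2, 38.5, 40.4 and 35.2 CPM against 7.83, 7.83, 4.06 and 5.27 CPM. Its log2 fold change was 2.70 ± 0.22 (adjusted p = 1.07e-05).

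Serpinh1 and Bmp1 act between folding and fibril formation. Serpinh1 was at 226, 182, 194 and 211 CPM in radiated skin of week 4 and at 80.1, 69.0, 46.2 and 75.2 CPM in control skin, a log2 fold change of 1.59 ± 0.17 (edgeR adjusted p = 4.83e-05). Bmp1 was at 285, 251, 302 and 279 CPM against 45.6, 51.4, 49.5 and 47.1 CPM. Both Bmp1 groups were tight, and with a log2 fold change of 2.54 ± 0.09 (adjusted p = 2.20e-07) it had the smallest standard error of the 10 genes.

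All 4 lysyl oxidases were higher in week 4. Lox was at 164, 139, 161 and 174 CPM in radiated skin and at 12.6, 20.04, 23.4 and 32.7 CPM in control skin, a log2 fold change of 2.85 ± 0.25 (edgeR adjusted p = 1.82e-05). Loxl1 was at 118, 96.5, 149 and 117 CPM against 19.7, 34.0, 22.5 and 26.1 CPM, a log2 fold change of 2.24 ± 0.19 (adjusted p = 1.37e-05). Loxl2 was at 605, 432, 379 and 481 CPM against 77.5, 87.4, 61.1 and 70.3 CPM, a log2 fold change of 2.69 ± 0.17 (adjusted p = 3.55e-06). Loxl3 was at 22.6, 20.3, 23.2 and 27.5 CPM against 2.75, 4.91, 3.97 and 3.69 CPM, a log2 fold change of 2.61 ± 0.18 (adjusted p = 5.54e-06). In each of the 4 genes the radiated and control samples lay apart, with no value shared between their ranges.

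**Figure D2:**
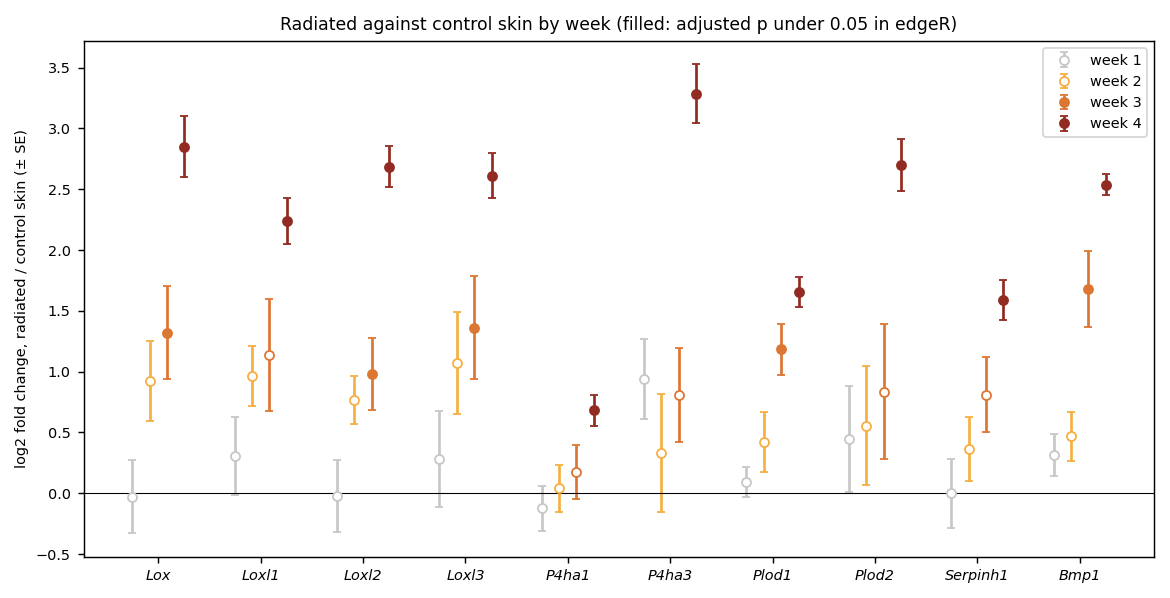
Log2 fold change of radiated over control skin, with its standard error, for each of the 10 genes in weeks 1 to 4 (n = 4 against 4 per week); filled points passed edgeR's test. Filled points number 0, 0, 5 and 10 from week 1 to week 4, and P4ha1 has the smallest week 4 change.

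A single fit to the 32 samples of radiated mice tested whether the gap between the 2 kinds of skin varied from week to week. For 8 of 10 genes it varied, against 15.6% of all 19338 genes tested. The edgeR adjusted p ran from 6.30e-05 for Bmp1 to 0.0492 for Loxl1, and it was 0.120 for P4ha1 and 0.0800 for Plod2. With the mouse as a block Loxl1 no longer passed (adjusted p = 0.0501) and Plod2 did (adjusted p = 0.00881), while the count stayed at 8 of 10, beside 15.8% of all genes. From week 2 to week 3 the difference grew for Bmp1, by 1.21 ± 0.32 on the log2 scale (adjusted p = 0.0231), and 1 of 10 genes stands beside 6.9% of all genes. The block added Plod1, at 0.79 (adjusted p = 0.0448), against 7.63% of all genes. From week 3 to week 4 it grew for Loxl2, by 1.74 ± 0.39 (adjusted p = 0.0416), and for P4ha3, by 2.50 ± 0.54 (adjusted p = 0.0341), 2 of 10 beside 0.419% of all genes. With the block 2 of 10 passed as well, beside 0.905%. Both kinds of skin differed between these weeks. Mean Loxl2 went from 271 to 474 CPM in radiated skin and from 140 to 74.1 CPM in control skin. Mean P4ha3 went from 7.26 to 13.8 CPM in radiated skin and from 4.21 to 1.43 CPM in control skin.
Under total-count scaling 0 of 10 genes passed for the step to week 4. The same count of 0 came without any 1 of the control samples of week 4, control replicate 2 or 4 or radiated replicate 2 of week 3, or radiated replicate 1, 2 or 4 of week 4. The step to week 3 had 0 calls without control replicate 1 or radiated replicate 2 of week 2, or control replicate 1 or radiated replicate 3 of week 3.

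Against sham skin, which came from unirradiated mice, the rise in radiated skin also came in weeks 3 and 4, in all of the genes but Plod2 by the end. None of the 10 passed edgeR's test in week 1 or in week 2, beside 1.75% and 5.06% of all genes. At an unadjusted p under 0.05 there were 1 and 2 of 10, beside 16.6% and 23.6% of all genes, and DESeq2 called 1 of 10 in each week, beside 1238 and 2482 of all genes. In week 3, 7 of 10 were higher, beside 10.4% of all genes that were higher and 18.2% that differed either way, and P4ha1, Plod2 and Serpinh1 did not pass. That count rested on the 3 sham samples: it was 3 without sham replicate 1 and 2 without sham replicate 2 or 3. In week 4, 9 of 10 were higher, beside 15.2% of all genes that were higher and 26.7% that differed.

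In week 4, Lox rose most over sham skin, where it was at 17.5, 29.7 and 10.8 CPM, with a log2 fold change of 3.08 ± 0.33 (edgeR adjusted p = 0.000509). The changes of P4ha3, at 2.63 ± 0.28, Loxl1, at 2.23 ± 0.19, Bmp1, at 2.06 ± 0.15, Loxl3, at 2.03 ± 0.18, and Loxl2, at 2.00 ± 0.22, followed. P4ha1 was lower in this order, at 0.67 ± 0.18 (adjusted p = 0.0251), and its call was lost without sham replicate 2 or 3 or radiated replicate 1, 2 or 4, with adjusted p from 0.0570 to 0.0701. Plod2 was the exception. Sham skin held 35.6, 37.4 and 35.1 CPM of it, overlapping with the 35.2 to 47.2 CPM of radiated skin of week 4, and the log2 fold change was 0.21 ± 0.13 (adjusted p = 0.292).

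**Figure D3:**
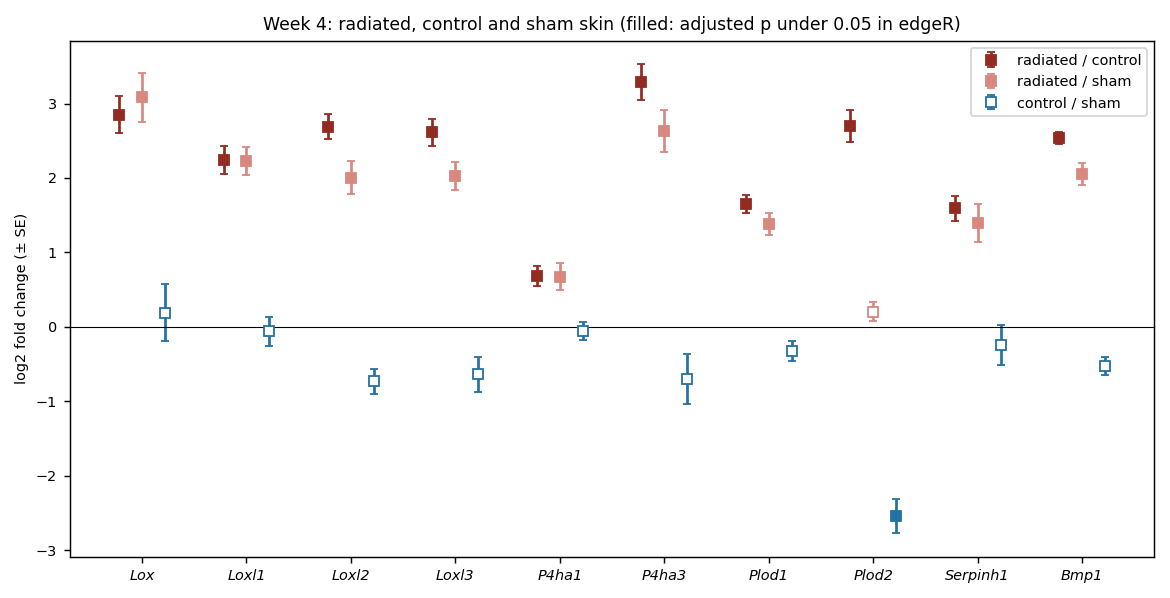
Log2 fold changes with standard errors in week 4 for radiated over control, radiated over sham and control over sham skin; filled points passed edgeR's test. The 3 comparisons share their samples in pairs, and Plod2 is the gene with a filled negative control-over-sham point, at -2.54.

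Control skin was also set against sham skin, to ask whether the control samples of radiated mice held these genes at the level of unirradiated mice. In week 4, 1 of 10 genes was lower and none higher, beside 3.65% of all genes that differed. Plod2 was at 6.25 ± 1.90 CPM (SD, n = 4) against 36.0 ± 1.22 CPM (SD, n = 3) in sham skin, a log2 fold change of -2.54 ± 0.23 (edgeR adjusted p = 0.00734). Without control replicate 2 or 4 its adjusted p rose to between 0.0536 and 0.0550. Bmp1, at -0.53 ± 0.12 (adjusted p = 0.0514), and Loxl2, at -0.73 ± 0.17 (adjusted p = 0.0547), lay just outside the threshold. Loxl2, Loxl3, Plod1, Plod2 and Bmp1, 5 of 10 genes, were lower in every control than in every sham sample, beside 9.64% of all genes. Without sham replicate 1, 3 of 10 genes passed.

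In weeks 1, 2 and 3, 1, 0 and 1 of the 10 genes passed between control and sham skin. Loxl1 was higher than in sham skin in week 1, at 59.8, 60.8, 57.3 and 49.2 CPM against 29.4, 27.8 and 22.3 CPM, a log2 fold change of 1.09 ± 0.14 (edgeR adjusted p = 0.0203), 1 of 10 genes beside 4.92% of all genes. In week 3 Lox passed, at 40.6, 45.9, 44.8 and 35.1 CPM, with a log2 fold change of 1.09 (adjusted p = 0.0494), 1 of 10 beside 11.4%. In week 2, 0 of 10 genes passed edgeR's test, beside 2.44% of all genes. There, 1 of 10 had an unadjusted p under 0.05, beside 21.1% of all genes, and DESeq2 called 0 of 10, beside 1956 of all genes. The call of Loxl1 was lost without sham replicate 2 or 3 or control replicate 2, 3 or 4, and that of Lox without sham replicate 1 or 3 or any 1 of the control replicates. In week 1, 7 of 8 skeletal muscle, 3 of 7 adipocyte, 2 of 9 fibroblast, 2 of 5 endothelial and 1 of 5 myofibroblast and smooth muscle markers were also higher in control than in sham skin. In week 3, 5 of 8 skeletal muscle markers were higher and 5 of 10 growing hair follicle markers lower, and 1 marker each of fibroblasts, myofibroblasts and smooth muscle, adipocytes, and leukocytes and macrophages was higher. Fibroblast markers summed to between 502 and 931 CPM in sham skin, 1027 and 1642 CPM in control skin of week 1 and 972 and 1342 CPM in control skin of week 3. The part of these cell types in the Loxl1 and Lox differences was not tested.

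Plod2 also varied widely within groups, with a coefficient of variation of 81.9% in control skin of week 3. In control skin it was at 17.2, 10.3, 10.8 and 30.5 CPM in week 1 and at 19.0, 6.37, 11.3 and 33.7 CPM in week 2. In radiated skin it was at 16.7, 16.1, 14.9 and 45.8 CPM in week 1 and at 24.6, 11.3, 29.2 and 37.8 CPM in week 2. Replicate 4 held the highest value in each of these groups. It also did so in week 3, at 52.9 CPM in radiated and 51.3 CPM in control skin, but in neither group of week 4.
The growing hair follicle markers, keratins and other genes of the hair shaft and root sheath, moved with it in part. They summed to 2153, 28060 and 33890 CPM in sham skin and to between 27.3 and 39.4 CPM in control skin of week 4, where 10 of 10 were lower than in sham skin. Control samples with 6806, 1439, 2747 and 1914 CPM of these markers were at 17.2, 30.5, 19.0 and 51.3 CPM of Plod2. Control replicate 4 of week 2 and replicate 2 of week 3, with 118 and 29.0 CPM of the markers, were at 33.7 and 32.2 CPM of Plod2. Against that, radiated replicates 1 and 2 of week 3 held 12.7 and 24.2 CPM of the markers and 47.2 and 48.8 CPM of Plod2. The part of the hair follicle in the Plod2 levels was not tested.

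**Figure D4:**
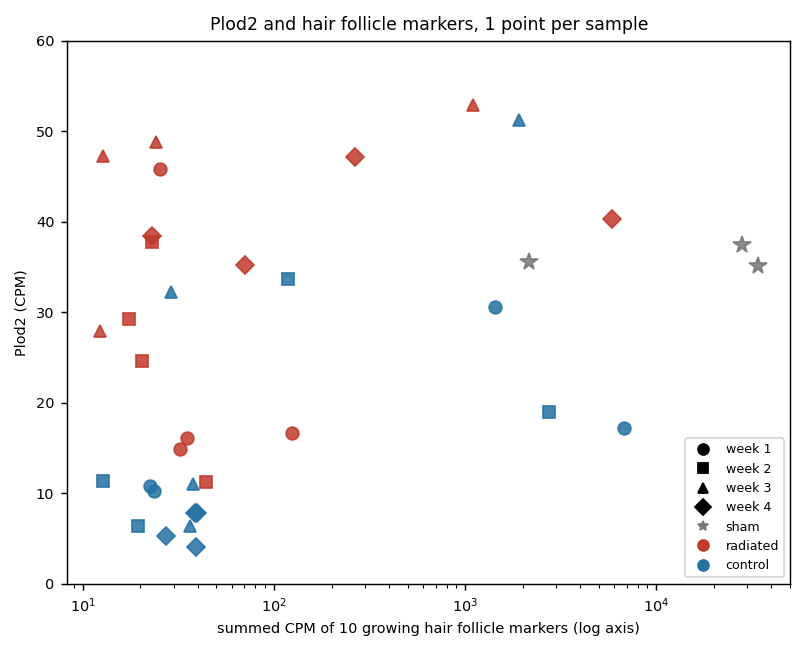
Plod2 in CPM against the summed CPM of 10 growing hair follicle markers (log axis), 1 point per sample; colour gives the kind of skin and shape the week. Sham samples lie at 35.1 to 37.4 CPM with high marker sums, the 4 control samples of week 4 lie at 4.06 to 7.83 CPM with low ones, and radiated samples of week 3 reach 27.9 to 52.9 CPM with mostly low ones.

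Ordered by mean level over the 9 groups, radiated skin of week 4 was highest for 7 genes and radiated skin of week 3 for P4ha1, Plod1 and Plod2. Neighbours in these orders mostly overlapped. The shares of all genes with such a top group or such a break were not computed, so these orders describe the 10 genes only. For Loxl2, radiated skin of week 4 (474 ± 96.7 CPM; SD, n = 4) did not overlap with the next group, radiated skin of week 3 (271 ± 88.4 CPM). For Loxl3 and Bmp1 a break between neighbours came below radiated week 3, and for Plod1 below radiated week 4, at 82.1 ± 9.78 CPM. Loxl3 had another between sham skin (5.93 ± 0.895 CPM) and control skin of week 4 (3.83 ± 0.888 CPM). For Plod2 the 1 break lay between control skin of week 1 (17.2 ± 9.43 CPM) and control skin of week 4. Lox, P4ha1, P4ha3 and Serpinh1 had no break between neighbours, and Loxl1 had 1, between radiated skin of week 2 (50.7 ± 14.2 CPM) and sham skin (26.5 ± 3.70 CPM).

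Across the 35 samples, the mean standardised log2 CPM of the 10 genes was followed most closely by Plod1, with a Spearman correlation of 0.942, and Loxl2, with 0.939, and least by P4ha1, with 0.643, each gene being part of that mean. Between pairs of the 10 genes the correlation ran from 0.344 for Bmp1 and P4ha1 to 0.892 for Loxl1 and Loxl2. Outside the 10, the genes most like the mean were Col6a3 (0.964), Col5a3 (0.948), Hcls1 (0.942), Cmtm3 (0.939) and Col5a2 (0.937), among 12524 genes whose mean over the samples reached 5 CPM. Of these, 3 encode collagen chains, and Hcls1 encodes a signalling protein of blood cells. The samples share groups and libraries, so these values describe the data and carry no test.

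The other genes of collagen biosynthesis moved in the same direction in most cases. Of 22 tested in week 4, 16 were higher in radiated skin and 3 lower, beside 24.2% of all genes that were higher and 48.4% that differed either way, with a median log2 fold change of 0.92 against 0.02 over all genes. The highest were Fkbp10, a foldase that works with lysyl hydroxylases, at 2.79 ± 0.17 (SE), Sparc, a collagen-binding matrix protein, at 2.65 ± 0.24, P3h1, a prolyl 3-hydroxylase, at 2.54 ± 0.16, and Adamts2, the procollagen N-proteinase, at 2.49 ± 0.17. The remaining prolyl 4-hydroxylase and lysyl hydroxylase genes also rose, P4ha2 by 1.36 ± 0.11, P4hb, the shared subunit, by 1.01 ± 0.09 and Plod3 by 1.30 ± 0.08, and so did Loxl4, by 0.96 ± 0.11. Pcolce, an enhancer of Bmp1, rose by 1.85 ± 0.15, whereas its relative Pcolce2 fell by 2.02 ± 0.11, to 15.6 ± 2.11 CPM (SD, n = 4) from 63.5 ± 4.13 CPM. P3h2, at -0.85 ± 0.15, and Adamts14, at -0.48 ± 0.12, were the others that fell, and Mia3, P3h4 and Colgalt2 did not pass. In week 3, 6 of 22 were higher and 2 lower, beside 13.6% of all genes that were higher and 27.2% that differed either way.

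**Figure D5:**
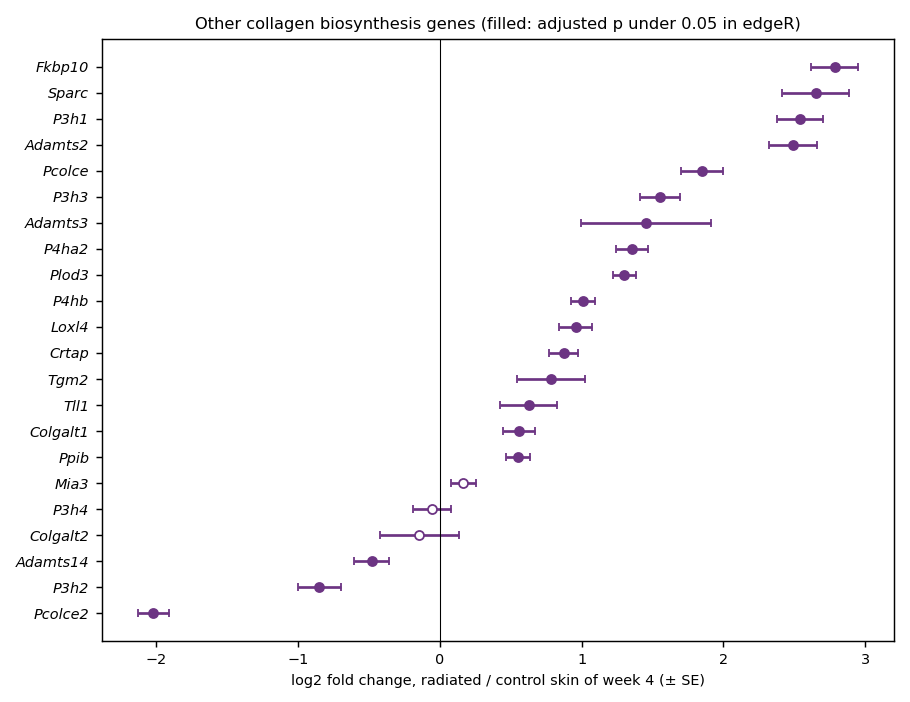
Log2 fold change of radiated over control skin of week 4, with its standard error, for the 22 other collagen biosynthesis genes tested (n = 4 against 4); filled points passed edgeR's test. The 16 filled points above 0 end at Fkbp10, at 2.79, and the lowest point is Pcolce2, at -2.02.

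The substrates of these enzymes were higher too. In week 4, 10 of 10 fibrillar collagen genes tested were higher in radiated skin, beside 24.2% of all genes, with a median log2 fold change of 3.19, among them Col1a1 at 4.10 ± 0.32 (SE), Col24a1 at 3.81 ± 0.26 and Col3a1 at 3.73 ± 0.35. Of 13 elastic fibre genes, 11 were higher and 2 lower, beside 24.2% of all genes in each direction. Fbln2, at 3.52 ± 0.16, Efemp2, which brings lysyl oxidase to elastin, at 3.18 ± 0.16, and Emilin1, at 2.96 ± 0.19, led these, and Ltbp4, at -1.12 ± 0.17, and Efemp1, at -0.97 ± 0.24, fell. Of 9 genes known to respond to TGF-beta, 8 were higher, beside the same 24.2%, among them Cthrc1 at 4.80 ± 0.40 and Pmepa1 at 2.87 ± 0.09, and Ccn2 was lower at -1.14 ± 0.18. Of 14 genes known to respond to hypoxia, 7 were higher and 3 lower, beside 24.2% of all genes in each direction. The higher ones were led by Slc2a1 at 1.29 ± 0.10, Egln3 at 0.95 ± 0.34 and Car9 at 0.89 ± 0.24. Bnip3, at -0.70 ± 0.22, Pdk1, at -0.67 ± 0.11, and Kdm3a, at -0.53 ± 0.07, fell, and the list's median was 0.64. Between control skin of week 4 and sham skin, 2 of 10 fibrillar collagen genes were lower, beside 3.65% of all genes that differed, among them Col1a1 at -1.82 ± 0.38 (edgeR adjusted p = 0.0418).

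Markers of several cell types also differed in week 4, when 24.2% of all genes were higher and 48.4% differed either way. Fibroblast markers summed to between 2180 and 2903 CPM in radiated skin and between 1038 and 1383 CPM in control skin, with 7 of 9 higher and 1 lower. Leukocyte and macrophage markers summed to between 895 and 1379 CPM against 189 and 234 CPM, with 7 of 8 higher and 1 lower. Endothelial markers were higher for 4 of 5. Of the 5 myofibroblast and smooth muscle markers 0 were higher and 2 lower, and 4 of 6 keratinocyte markers were lower and 1 higher. Skeletal muscle markers, with 6 of 8 lower and 1 higher, summed to between 1416 and 3056 CPM in radiated skin and between 1581 and 22600 CPM in control skin. With the block, 2 of these 8 were lower and 0 higher. Of the growing hair follicle markers 6 of 8 tested were higher, and 3 with the mouse as a block. They summed to 264, 23.0, 5873 and 70.1 CPM in the radiated samples and to between 27.3 and 39.4 CPM in the control samples. Without radiated replicate 3, which held the 5873 CPM, 10 of 10 genes still passed. In week 3, fibroblast markers summed to between 994 and 2295 CPM against 972 and 1342 CPM and muscle markers to between 3214 and 9186 CPM against 17950 and 35620 CPM. Leukocyte and macrophage markers summed to between 634 and 1693 CPM against 242 and 651 CPM in that week, with 5 of 8 higher, beside 13.6% of all genes. Against sham skin, radiated skin of week 3 had 7 of 8 leukocyte and macrophage, 5 of 9 fibroblast and 2 of 5 endothelial markers higher and 6 of 10 hair follicle markers lower. In week 4 it had 7 of 8, 7 of 9 and 5 of 5 of the first 3 lists higher and 7 of 8 skeletal muscle markers lower, with 1 fibroblast marker lower and 1 muscle marker higher. Over all genes, 18.2% differed between radiated and sham skin in week 3 and 26.7% in week 4. The part of these cell types in the differences of the 10 genes was not tested.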

How the data were processed

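Biopsies went into RNAlater, an RNeasy kit gave total RNA and a company sequenced it, per the labels' protocols. Per the submitters' processing notes, Trim Galore 0.6.7, kallisto 0.46.2 and build mm10 were used, and the labels' protocols name DESeq2. Estimated counts of each gene were deposited, not scaled between samples, and were rounded to whole numbers here. Kallisto splits reads that fit several transcripts, so near-identical genes are less certain.

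Differences were tested with edgeR 4.0.16 (quasi-likelihood F test, filterByExpr, TMM scaling, Benjamini-Hochberg adjustment over all genes tested) in R 4.3.3, on the 2 groups compared, with a threshold of 0.05. The standard error is the size of the log2 fold change divided by the square root of F. CPM uses TMM-scaled totals over 19813 genes, and log2 CPM a prior count of 2. Alternatives were total-count and DESeq2 size factor scaling, no filter, DESeq2 1.42.0, 1 fit of all 9 groups, the mouse as a block, and leaving out each library.

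With 35 samples from 19 mice, radiated and control samples of a week and number were taken to be 1 mouse. Deviations of same-numbered samples correlated by 0.0706, 0.173, 0.0525 and -0.0198 on average in weeks 1 to 4. Those of differently numbered samples correlated by -0.0237, -0.0568, -0.0168 and 0.00738. In week 4 same-numbered samples were therefore no more alike than others. Among 51 pairs of libraries of a group, the lowest reduced chi-square was 21.2, so none was a repeat. P-values without the block measure the spread between samples within a group, each from a different mouse, and ignore this pairing. Those with the block measure the spread of the differences between paired samples. No batch is given in the labels.

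The 10 genes and all gene lists were chosen with earlier results of these data known. The 10 genes and the other collagen biosynthesis genes could be named whatever their values. From each other pathway list up to 3 genes that rose and 3 that fell most in week 4, and Col1a1, were named, except 1 gene that is not reported here. The 5 most alike genes were those with the highest Spearman correlation.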

Additional observations from a re-analysis of the deposited data

Results flagged for a closer look

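In 5 of 80 sets of 4 samples, 1 per gene and group, a single sample stood far from the other 3 by Dixon's test, and chance gives about 1 in 20. Plod2 was high in radiated skin of week 1 replicate 4, at 45.8 CPM. Serpinh1 was low in radiated skin of week 1 replicate 2, at 43.6 CPM. Loxl2 was low in control skin of week 2 replicate 2, at 72.9 CPM, P4ha3 in control skin of week 4 replicate 4, at 0.884 CPM, and Plod1 was high in control skin of week 1 replicate 3, at 35.2 CPM, where the group spans little.

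For 8 genes the gap between radiated and control samples varied over weeks 1 to 4 in edgeR's interaction test. The adjusted p was 6.30e-05 for Bmp1, 0.000218 for Loxl2, 0.000462 for Plod1, 0.00140 for P4ha3, 0.00200 for Lox, 0.0347 for Loxl3, 0.0353 for Serpinh1 and 0.0492 for Loxl1. Without 1 library at a time the count was 5 to 9. Over 37 alternatives the call was lost in 26 for Loxl1 and in 9 each for Loxl3 and Serpinh1, and in none for the other 5 genes.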

How the results depend on the processing

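The 10 of 10 genes called in radiated against control skin of week 4 stayed 10 under all 6 other settings and without any 1 library. Other counts of members moved. With the replicate block, 2 genes were called in week 2 and 2 in week 3, and 2 changed their difference from week 2 to week 3; it changed no other count of members by over 1.5 times. Total-count scaling, the DESeq2 Wald test and the fit of all 9 groups each called 7 in week 3, and that fit called 9 for radiated week 3 against sham. The DESeq2 Wald test called 2 in week 2, 1 against sham skin for radiated week 1 and 1 for radiated week 2, and 3 each for control skin of weeks 1, 3 and 4 against sham. Total-count scaling called 0 for control week 3 and 3 for control week 4 against sham, and 0 for the change from week 3 to week 4. Without a filter on low counts, 2 were called for control week 4 against sham. The fit of all 9 groups called 1 for radiated week 1, 0 for control week 1 and 0 for control week 3 against sham. Leaving out 1 library gave 2 to 7 in week 3, 0 to 1 for radiated week 1 (1 without radiated replicate 2), 2 to 8 for radiated week 3, 0 to 1 for control weeks 1 and 3 and 0 to 3 for control week 4 against sham. It gave 5 to 9 for the change over all weeks (5 without control week 1 replicate 1, control week 4 replicate 3 or 4, or radiated week 4 replicate 1, 3 or 4), 0 to 2 from week 2 to 3 and 0 to 3 from week 3 to 4. P4ha1 in week 3 reversed, to a log2 fold change of -0.055, without radiated replicate 1, and ranged up to 0.33 without another library. Of 1218 alternatives for 68 values of single genes, 1048 kept direction and call, 132 lost the call, 37 gained it and 1 reversed. In week 3, total-count scaling moved the median over all genes from 0.08 to 0.32 on the log2 scale and the share of calls that were higher from 50.1% to 76.1%. The counts over all genes moved as well: without 1 library they ran from 0 to 232 in week 1 and 0 to 206 in week 2 for radiated against control, from 1 to 543, 107 to 1398 and 1134 to 3965 for radiated weeks 1 to 3 and from 0 to 1803, 0 to 2199, 629 to 2438 and 0 to 1705 for control weeks 1 to 4 against sham, and from 652 to 1836 and 3 to 156 for the steps to weeks 3 and 4. The causes were not tested.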
